A study of Homo sapiens with 9 samples.

Results

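The genes of the KLF (Krüppel-like factor) transcription factor family were examined for binding of the SWI/SNF chromatin remodeling complex in HepG2, an established human hepatocellular carcinoma line. The members were 10 genes, KLF2, KLF3, KLF4, KLF5, KLF6, KLF9, KLF10, KLF11, KLF13 and KLF16, and their binding sites were the peaks whose deposited nearest gene was 1 of these names. Of the 10, 7 were a nearest gene in at least 1 list, among 12428 gene names in all. They held 27 of the 34575 ARID peaks.

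Chromatin from HepG2 cells was fixed with formaldehyde, digested with micrococcal nuclease and immunoprecipitated with an antibody against ARID1A, ARID1B, ARID2 or SNF5 (ChIP-seq), with 2 replicates per antibody and 1 input library, 9 libraries in total. ARID1A and ARID1B are alternative subunits of the BAF form of SWI/SNF, ARID2 belongs to the PBAF form, and SNF5 is a core subunit. The authors merged both replicates before calling peaks, so each subunit was represented by 1 list of peaks on hg19, with 12852, 8728, 12995 and 20718 peaks for ARID1A, ARID1B, ARID2 and SNF5. The values below therefore carry no replicate error, the depth behind each list is unknown, no test between samples was possible, and the binding of a subunit cannot be told apart from the performance of its antibody in this 1 cell line.

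KLF proteins are transcription factors that bind DNA through C2H2 zinc fingers at their C-terminal end, and they recognize GC-rich sequences known as the GC box and the CACCC box, as the related SP factors do. Members differ in the part outside the fingers, so that some mainly activate transcription while others recruit the corepressors CtBP or SIN3. In the liver they take part in glucose and lipid metabolism, in the response to injury and in the control of cell growth.

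Among the 10 members, KLF6, KLF9, KLF10, KLF13 and KLF16 each had peaks of all 3 ARIDs, as did 21.1% of the gene names in the lists. KLF3 had an ARID2 peak only and KLF4 an ARID1B peak only, patterns held by 14.2% and 13.3% of names. KLF2, KLF5 and KLF11 were the nearest gene of no ARID peak. Counted by list, 5 members had an ARID1A peak (68% of names), 6 an ARID1B peak (44.6%) and 6 an ARID2 peak (62.8%). The percentages over names leave out genes to which no peak was assigned, and such genes are among the 10 members.

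**Figure D1:**
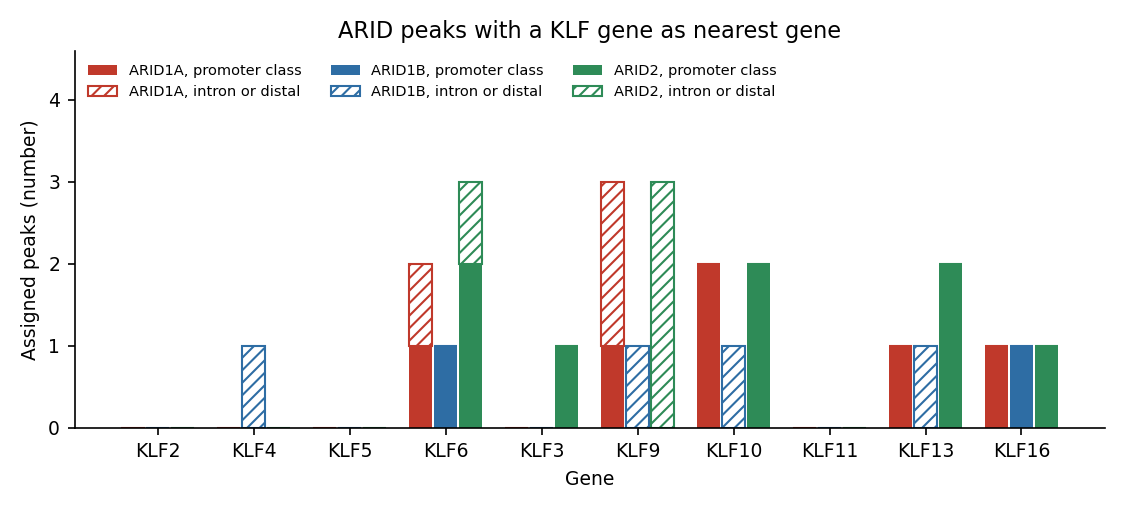
Number of assigned peaks (y axis) for each of the 10 KLF genes (x axis) in the ARID1A, ARID1B and ARID2 lists, with filled bars for peaks of the promoter class and hatched bars for intron or distal peaks. KLF6 and KLF9 have up to 3 peaks in 1 list, and KLF2, KLF5 and KLF11 have none.

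The members that mainly activate transcription were KLF2, KLF4, KLF5 and KLF6. KLF6, an injury-responsive factor that acts as a growth suppressor in liver, held 2 ARID1A, 1 ARID1B and 3 ARID2 peaks. KLF4, a pluripotency factor and regulator of epithelial differentiation, held a single peak. KLF2, a regulator of endothelial and T cell quiescence, and KLF5, a factor of proliferating epithelia, held none.

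At KLF6 (chr10:3818188-3827473, minus strand, GRCh37, the assembly that is also called hg19), 1 stretch was covered by the peaks of all 3 ARIDs. Positions at each gene are given in bp from its annotated start, which is 0, with upstream negative. The ARID1A peak at the promoter was 1463 bp wide and ran from -875 to 587, the ARID1B peak was 387 bp wide and ran from -382 to 4, and the ARID2 peak of 137 bp ran from -372 to -236. The ARID2 peak lay inside both others, so the stretch shared by the 3 lists was the ARID2 peak itself. It lay upstream of the annotated start and is shown because it is the place where the 3 peaks coincide. Here and below, sequences are from GRCh37, read 5′ to 3′ on the strand of the gene, and capitals mark matches on either strand to the GC box (GGGCGG, or CCGCCC on the other strand) and to the CACCC box (CACCC, or GGGTG on the other strand).

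KLF6 stretch shared by ARID1A, ARID1B and ARID2, chr10:3827709-3827845, minus strand: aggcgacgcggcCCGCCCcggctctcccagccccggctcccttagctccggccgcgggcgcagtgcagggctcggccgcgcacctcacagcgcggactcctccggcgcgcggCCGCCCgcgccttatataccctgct

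The stretch held 2 GC boxes and no CACCC box, and 78.1% of its bases were G or C. A further ARID2 peak of 483 bp lay from -1107 to -625 at KLF6 and overlapped the same ARID1A peak over 251 bp, outside the ARID1B peak. The third KLF6 site was in an intron, where an ARID1A peak of 760 bp (1542 to 2301) contained an ARID2 peak of 128 bp (1702 to 1829) without ARID1B. The sequence of this intronic stretch is given to set it against the promoter stretch.

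KLF6 stretch shared by ARID1A and ARID2 in the intron, chr10:3825644-3825771, minus strand: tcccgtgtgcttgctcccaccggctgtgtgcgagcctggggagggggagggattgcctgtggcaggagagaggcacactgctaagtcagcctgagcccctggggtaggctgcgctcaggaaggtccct

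The intronic stretch held neither box. SNF5 differed between the KLF6 sites as well. The promoter site lay wholly inside an SNF5 peak with a score of 30, higher than 90.7% of SNF5 peaks, whereas the SNF5 peak at the intronic site had a score of 19 and covered 29.9% of the ARID1A peak. The score is a whole number given by the peak caller and was used only to rank peaks within the SNF5 list. The chromatin state deposited for the intronic ARID1A peak was a repetitive or copy-number class, a state of 0.202% of ARID1A peaks, while the ARID2 peak inside it was classed as active promoter.

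Set against all names, KLF6 stood high in summed peak width. In this and later sums, bases covered in more than 1 list were counted once for each list. The sums therefore rise with overlap between lists and are not amounts of distinct sequence. Its peaks in the 3 ARID lists summed to 3358 bp, more than the sum for 97.7% of the 12428 names, whose median was 407 bp over 2 peaks, with 60.2% of names at 2 peaks or more. KLF6 and KLF9 had 6 or more peaks in the 3 lists together, as did 9.84% of names, and these 2 with KLF10 and KLF13 had 4 or more, as did 22.7%. Within the family, KLF10 and KLF9 followed with 1972 and 1939 bp, KLF16 with 1141 bp and KLF13 with 794 bp, while KLF3 and KLF4 had 180 and 71 bp. The same counts as KLF6 in each list were found for 47 names, and among these only KLF6 and EVI5 had every peak overlapping both another ARID and SNF5. The EVI5 peaks summed to 1555 bp, an absolute log2 ratio to KLF6 of 1.11. That likeness was measured over 6 peaks in 3 lists and says nothing of a shared function.

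At KLF4 (chr9:110247133-110252763, minus strand), the single ARID1B peak was 71 bp wide and lay 14411 bp from the nearest start in the deposited table, upstream of the gene, in a state classed as weak enhancer. No other listed peak was close to it. The nearest peaks of ARID1A, ARID2 and SNF5 were 221162, 218387 and 219788 bp away. Its sequence is shown as the base composition farthest from that of the KLF6 promoter stretch.

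KLF4 ARID1B peak, chr9:110267142-110267212, minus strand: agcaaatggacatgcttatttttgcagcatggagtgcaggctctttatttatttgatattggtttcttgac

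Of these 71 bases, 36.6% were G or C, and neither box was present, although the window of 200 bp about the midpoint held a CACCC box. At KLF2 and KLF5 the absence of peaks extended far beyond the promoter. The ARID peak nearest to the start of KLF2 was 126558 bp away and that nearest to KLF5 was 272933 bp away, both of ARID1A, and the nearest SNF5 peaks were 126669 and 273183 bp away. Of 20163 protein-coding genes, 29.4% likewise had no peak of any of the 4 lists within 50000 bp of the start.

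KLF3, a repressor that recruits CtBP and acts in fat and blood cells, was assigned 1 ARID2 peak of 180 bp. The peak ran from -209 to -30, overlapped no other ARID and no SNF5 peak, and was the only promoter peak among the 16 KLF promoter peaks without SNF5. The share of all ARID promoter peaks with SNF5 was not computed, so how usual such a peak is was not determined. The sequence is shown because it held more matches than any other KLF stretch printed here.

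KLF3 ARID2 peak, chr4:38665609-38665788, plus strand: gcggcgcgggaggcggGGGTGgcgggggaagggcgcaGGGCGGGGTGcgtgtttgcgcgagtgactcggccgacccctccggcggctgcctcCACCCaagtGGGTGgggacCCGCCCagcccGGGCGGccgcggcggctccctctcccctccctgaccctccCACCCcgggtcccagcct

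It held 3 GC boxes and 5 CACCC boxes, with 80% G or C, and a GC box and a CACCC box shared bases in the run GGGCGGGGTG. The single assignment understates what lies at the gene. An ARID1A peak (195 to 420), 3 more ARID2 peaks and an ARID1B peak (9157 to 9497) lay within the KLF3 gene but had been assigned to RP11-617D20.1, a non-coding gene antisense to it. The gene body also held 3 SNF5 peaks with scores of 26, 22 and 27. The ARID1A peak, 224 bp from the assigned ARID2 peak, overlapped the SNF5 peak with a score of 26, and the nearest SNF5 edge was 371 bp from the ARID2 peak.

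The members that recruit SIN3 were KLF9, KLF10, KLF11, KLF13 and KLF16. KLF16, a regulator of metabolic and dopamine receptor genes, resembled KLF6 in that its ARID1A, ARID1B and ARID2 peaks shared 1 stretch upstream of the start. The ARID1A peak was 824 bp wide and ran from -1154 to -331, the ARID2 peak of 221 bp ran from -883 to -663, and the ARID1B peak of 96 bp ran from -789 to -694, inside both others. The SNF5 peak that held the stretch had a score of 15, lower than at KLF6, with 8.44% of SNF5 peaks below it. Inside the gene lay an ARID2 peak (2775 to 3150), which overlapped an SNF5 peak with a score of 27, and an ARID1A peak (10076 to 10149). Both had been assigned to other names.

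KLF16 stretch shared by ARID1A, ARID1B and ARID2, chr19:1864272-1864367, minus strand: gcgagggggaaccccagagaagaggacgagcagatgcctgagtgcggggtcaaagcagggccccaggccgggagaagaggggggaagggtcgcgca

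This stretch of 96 bp had neither box, and 68.8% of its bases were G or C. The window of 200 bp about the midpoint of the same ARID1B peak held both boxes. KLF6 and KLF16 were the only members with peaks of all 3 ARIDs within 1000 bp of the start, a feature of 7.93% of protein-coding genes. Peaks that overlapped both other ARIDs numbered 2 of 9 KLF peaks for ARID1A (13.7% of the list), 2 of 6 for ARID1B (19.2%) and 2 of 12 for ARID2 (13%), and came from KLF6 and KLF16 alone.

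KLF9, a glucocorticoid and thyroid hormone responsive repressor, had the most peaks, with 3 of ARID1A, 1 of ARID1B and 3 of ARID2. All but 1 lay in an upstream cluster. The exception was an ARID1A peak of 472 bp downstream of the start (427 to 898), inside an SNF5 peak with a score of 22 and without another ARID. The upstream cluster ran from the ARID1B peak at -5899 to the ARID2 peak that ended at -3759, and an SNF5 peak of 1722 bp with a score of 26 covered most of it. Within the cluster, ARID1A and ARID2 coincided over 36 bp and ARID1B and ARID2 coincided over 49 bp.

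KLF9 stretch shared by ARID1A and ARID2, chr9:73034465-73034500, minus strand: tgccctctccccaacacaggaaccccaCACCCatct

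KLF9 stretch shared by ARID1B and ARID2, chr9:73035421-73035469, minus strand: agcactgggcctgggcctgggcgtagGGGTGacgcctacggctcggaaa

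These stretches are shown because ARID2 met a different partner in each. The ARID1A and ARID2 stretch was inside the SNF5 peak, whereas the ARID1B and ARID2 stretch was 138 bp from the nearest SNF5 peak. Each held 1 CACCC box. The ARID1B peak, at 52 bp, was of the smallest width in its list, a width shared by 1187 peaks, and the ARID2 peak beside it was 55 bp wide.

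KLF10, also known as TIEG1, an early response gene of TGF-beta signaling, had 2 ARID1A, 1 ARID1B and 2 ARID2 peaks on chromosome 8. The ARID1A peak at the start was 926 bp wide and ran from -440 to 485. An ARID2 peak of 466 bp (-491 to -26) overlapped it over 415 bp, the longest overlap of ARID1A with ARID2 among the members. Inside the gene, an ARID1A peak (1554 to 1769) and an ARID2 peak (1867 to 2120) lay 97 bp apart and touched the same SNF5 peak, which had a score of 30. The ARID1B peak of 110 bp lay apart from both sites, from -1794 to -1685, and 221 bp from SNF5. Both in-gene peaks carried the promoter class, since another annotated transcript start lay 311 and 643 bp from their midpoints.

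KLF13, which regulates T cell chemokine expression and cardiac development, had ARID1A and ARID2 at its promoter and ARID1B far from it. The ARID1A peak of 309 bp ran from -549 to -241 and overlapped an ARID2 peak of 165 bp (-376 to -212) over 136 bp. A second ARID2 peak, 52 bp wide, lay 90 bp beyond the ARID1A peak, and the 3 were inside 1 SNF5 peak with a score of 19. The ARID1B peak of 268 bp was 34083 bp from the nearest start in the deposited table and 32946 bp from the nearest SNF5 peak. The shared promoter stretch and the ARID1B peak are shown for contrast.

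KLF13 stretch shared by ARID1A and ARID2, chr15:31618662-31618797, plus strand: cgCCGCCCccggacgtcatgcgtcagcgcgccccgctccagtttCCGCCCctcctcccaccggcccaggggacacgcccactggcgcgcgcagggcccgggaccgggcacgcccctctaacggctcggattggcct

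KLF13 ARID1B peak, chr15:31584839-31585106, plus strand: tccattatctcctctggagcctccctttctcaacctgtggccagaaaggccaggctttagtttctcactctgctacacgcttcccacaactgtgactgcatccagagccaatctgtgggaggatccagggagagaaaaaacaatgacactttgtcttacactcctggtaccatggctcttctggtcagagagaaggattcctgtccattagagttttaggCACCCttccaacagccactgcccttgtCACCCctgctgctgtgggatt

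The promoter stretch had 2 GC boxes and 77.2% G or C, and the ARID1B peak had no GC box, 2 CACCC boxes and 51.1% G or C. The ARID1B peak was nevertheless classed as active promoter in the deposited chromatin states.

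KLF11, also known as TIEG2, a regulator of insulin and cholesterol genes, had no ARID peak assigned and none near. An SNF5 peak of 138 bp with a score of 24 lay from 1022 to 1159 in the gene. The ARID peaks nearest to its start were 76919, 77674 and 77127 bp away for ARID1A, ARID1B and ARID2. An SNF5 peak without any ARID peak within 5000 bp of the gene was found for 6.06% of protein-coding genes, and KLF11 was the only member of that kind.

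**Figure D2:**
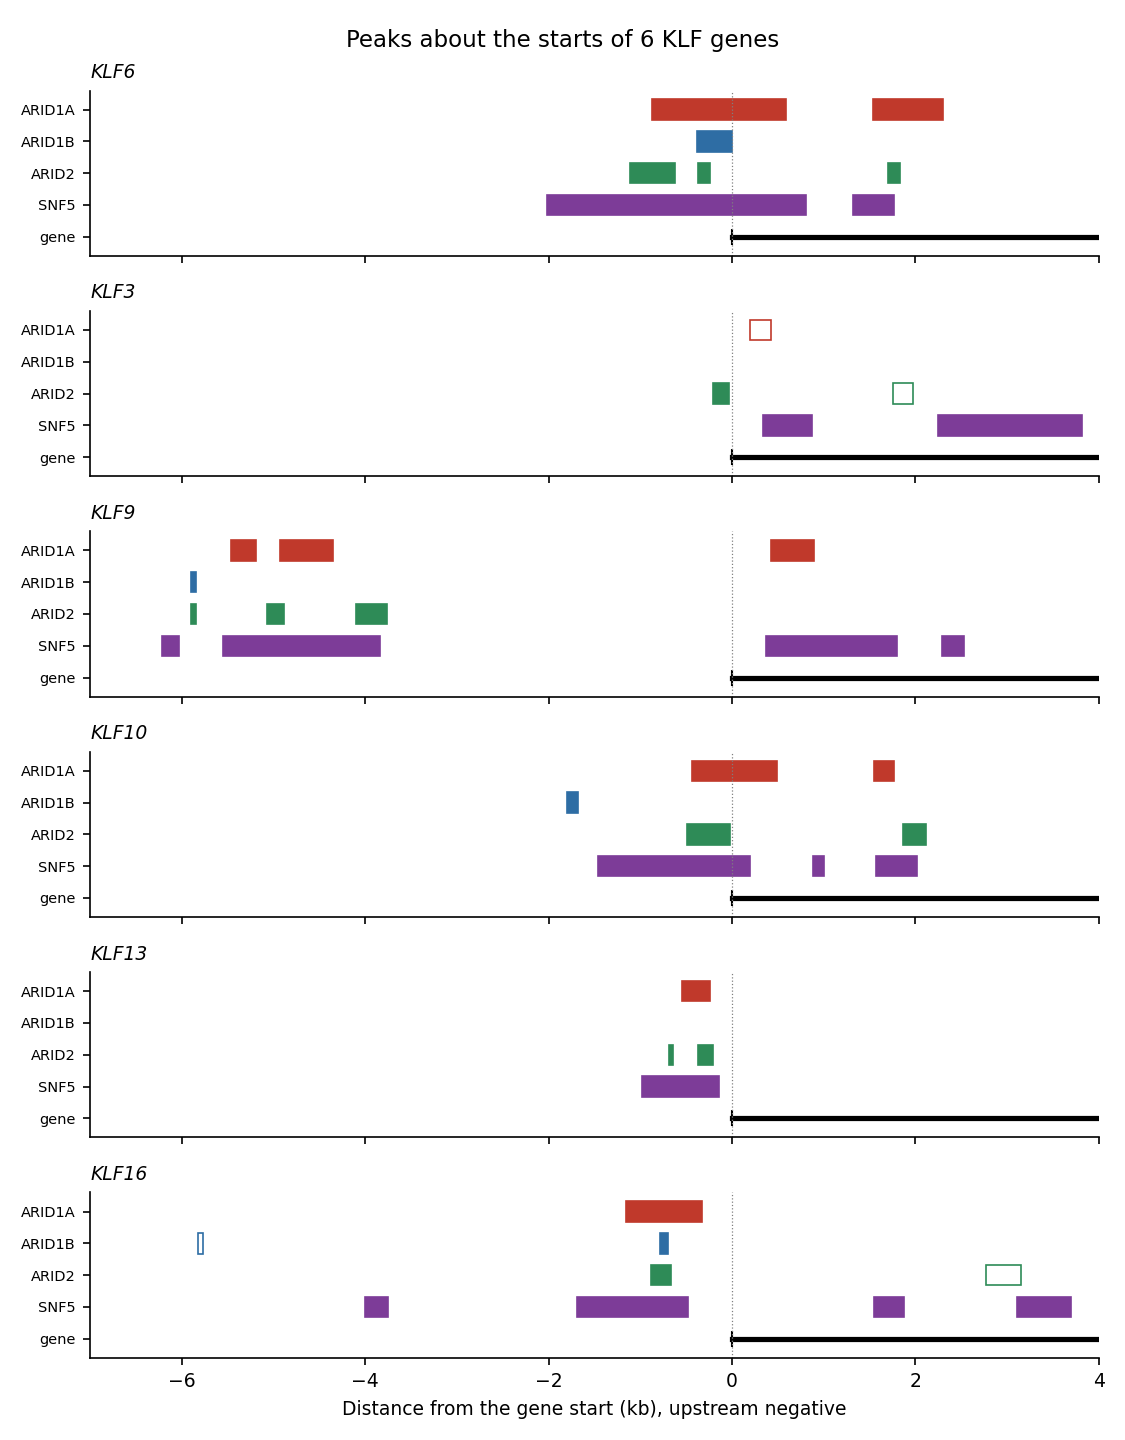
Peaks of ARID1A, ARID1B, ARID2 and SNF5 (rows) against distance from the gene start in kb (x axis, upstream negative) for 6 KLF genes, with the gene as a black line. Filled boxes are SNF5 peaks and ARID peaks assigned to that gene, and open boxes are ARID peaks assigned to another name. KLF6 and KLF16 are the genes where the 3 ARID rows line up, and KLF9 has its cluster from -5899 to -3759 bp.

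The ARID1B list as a whole had the lowest promoter share of the 3, 37.9% of peaks against 72.6% for ARID1A and 67% for ARID2, and its share among KLF peaks, 2 of 6, was close to that. Members with a promoter peak numbered 5 for ARID1A (57.8% of names), 5 for ARID2 (51.3%) and 2 for ARID1B (21.8%). Of the 6 ARID1B peaks, 4 were distal (66.7%, 95% Wilson interval 30.0 to 90.3, against 25.8% of the list) and none was intronic (33.9% of the list) or exonic (2.36%). None of these 4 overlapped SNF5, whereas the 2 promoter peaks did, which gave 2 of 6 with SNF5 (33.3%, 9.68 to 70.0, against 62.9%). The SNF5 shares of distal and of promoter peaks over the whole ARID1B list were not computed. The split by class is therefore not shown to be particular to KLF genes. SNF5 overlapped 9 of 9 ARID1A peaks (70.1 to 100, against 71.3%) and 10 of 12 ARID2 peaks (83.3%, 55.2 to 95.3, against 67.2%). Each list share with SNF5 lay inside its interval. The distal share of the ARID1B list, 25.8%, lay below its interval of 30.0 to 90.3. When 50% or more of both peaks had to overlap, the shares with SNF5 were 22.2% of KLF peaks against 13.0% of the list for ARID1A, 0% against 5.58% for ARID1B and 0% against 7.56% for ARID2, so that the direction for ARID2 turned. These intervals cover counting error over peaks only, and peaks at 1 locus are not independent of each other.

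Since assignment to a nearest gene can pass over a member, peaks were also counted by position alone, in a window chosen after the peaks were seen. Within 50000 bp of the start, 7 of the 10 members had an ARID1B peak outside the promoter class, as did 20.1% of protein-coding genes. The midpoints were at 9.33 kb for KLF3, -14.4 kb for KLF4, -25.4 kb for KLF6, -5.87 kb for KLF9, -1.74 kb for KLF10, -34.1 kb for KLF13 and -5.80 kb for KLF16, so that 6 of 7 were upstream. This count is not independent of the assigned peaks, since 4 of the 7 were the distal ARID1B peaks described above and 3, at KLF3, KLF6 and KLF16, had been assigned to other names. Of these 7 peaks, 2 overlapped SNF5, those at KLF3 and KLF6, and 1 overlapped another ARID, that at KLF9. The matching shares over all genes, for the side and for these overlaps, were not computed. These counts are therefore not shown to be particular to KLF genes. The peak at KLF6 was 105 bp wide (chr10:3852780-3852884) and had been assigned to RP11-464C19.2. The corresponding counts were 3 of 10 members for ARID1A (17.5% of protein-coding genes) and 4 of 10 for ARID2 (19.9%).

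Closer to the genes ARID1B was found at fewer members than the other ARIDs. Within 5000 bp of the gene body, 6 of 10 members had ARID1A (44% of protein-coding genes), 4 had ARID1B (23.8%), 6 had ARID2 (39.9%) and 7 had SNF5 (52.6%). All 3 ARIDs were found there at KLF3, KLF6, KLF10 and KLF16 (16.7% of protein-coding genes). Counted by position, KLF3 thus joined the members with all 3 ARIDs, and KLF9 and KLF13 left them because their ARID1B peaks were over 5000 bp away. Within 1000 bp of the start, ARID1A was found at 6 members (32.7%), ARID2 at 5 (28.4%), ARID1B at 2 (10.9%) and SNF5 at 6 (38.8%).

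Overlap between ARIDs at KLF genes was not set apart from the lists at these counts. Peaks that overlapped another ARID, called multiple, were 6 of 9 for ARID1A (66.7%, 35.4 to 87.9, against 47.6%), 3 of 6 for ARID1B (50%, 18.8 to 81.2, against 40.1%) and 8 of 12 for ARID2 (66.7%, 39.1 to 86.2, against 46.9%). Each list value lay inside its interval, and the direction depended on the rule. When 50% or more of both peaks had to overlap, multiple peaks were 0% of KLF peaks against 17.7% of the list for ARID1A, 16.7% against 12.5% for ARID1B and 8.33% against 17.1% for ARID2. The promoter class held 6 of 9 ARID1A (72.6% of the list), 2 of 6 ARID1B (37.9%) and 8 of 12 ARID2 peaks (67%), shares close to those of the lists. Of the ARID1A peaks, 2 of 9 were distal (12.6%), 1 was intronic (12.9%) and none exonic (1.88%), and of the ARID2 peaks, 3 of 12 were distal (13.6%), 1 was intronic (17.5%) and none exonic (1.89%). Over the 3 lists, KLF peaks were in the promoter class in 16 of 27 cases (61.7%) and intronic in 2 (19.9%). They were distal in 9 (33.3%, 18.6 to 52.2, against 16.3%). Every distal ARID1A and ARID2 peak, and 1 of the distal ARID1B peaks, was in the upstream cluster of KLF9. The distal share therefore rests largely on 1 locus counted in 3 lists, and its interval treats those peaks as independent. Multiple peaks made up 17 of 27 (45.5%) and peaks with SNF5 21 of 27 (67.6%). Among the 17 multiple peaks, 15 overlapped SNF5, and of the 10 single peaks, 6 did. The matching shares over the whole lists were not computed, so these counts are not shown to be particular to KLF genes.

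**Figure D3:**
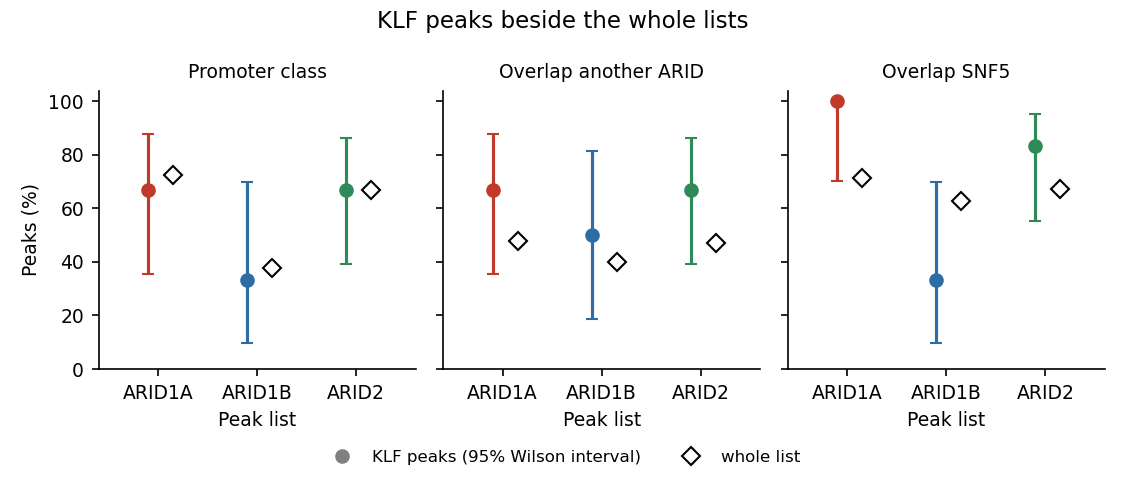
Percentage of peaks (y axis) in the promoter class, overlapping another ARID and overlapping SNF5, by peak list (x axis), with filled circles for KLF peaks and their 95% Wilson intervals and open diamonds for the whole list. Every diamond falls inside the interval of its circle, and ARID1B is the list in which the KLF share with SNF5, 33.3%, is below the list's 62.9%.

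The chromatin states deposited with the peaks were more uniform than the feature classes. Active promoter was the state of 23 of 27 KLF peaks (85.2%, 67.5 to 94.1), against 54.7% of all ARID peaks. By list these were 8 of 9 for ARID1A (62.6%), 5 of 6 for ARID1B (32.2%) and 10 of 12 for ARID2 (61.9%). The 4 peaks in other states were the KLF4 peak (weak enhancer, 4.54% of ARID1B peaks), the intronic ARID1A peak of KLF6, the KLF16 ARID2 peak (weak promoter, 10.9% of ARID2 peaks) and an ARID2 peak of the KLF9 cluster (heterochromatin, 0.562%). Peaks at 1 locus are not independent of each other, and 7 of the 27 were at KLF9.

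Most KLF promoter peaks of ARID2 lay upstream of the start. They came from 5 members, and peaks at 1 locus are not independent of each other. Of the 8, 7 ended before the annotated start, whereas 17.4% of ARID2 promoter peaks in the list did. The exception was the in-gene peak of KLF10. For ARID1A, 2 of 6 ended before the start (13.7% of the list), 2 spanned it (30.1%) and 2 lay downstream (56.2%). These sides were taken from the gene start in Gencode v44, with 1 start per gene, over peaks whose assigned name was in that annotation. They depend on that choice. The upstream ARID2 peak of KLF10, 466 bp wide, had a deposited distance of 79 bp. Taken from the midpoint, that distance places the deposited start inside the peak, so 1 of the 7 would span it.

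ARID1A peaks at KLF genes were mostly wider than the list median. The 9 peaks came from 5 members, and peaks at 1 locus are not independent of each other. The ARID1A widths ran from 216 to 1463 bp with a median of 571 bp, and 8 of 9 exceeded the list median of 218 bp. The KLF6 promoter peak was wider than 99.1% of ARID1A peaks, that of KLF10 than 96.0% and that of KLF16 than 94.7%. ARID1B widths had a median of 103 bp against 164 bp, with 2 of 6 above the list median, and ARID2 widths a median of 178 bp against 189 bp, with 5 of 12 above. The 8 SNF5 peaks that overlapped KLF peaks had a median width of 1320 bp against 535 bp, with 6 of 8 above it. Their median score of 20.5 was near the list median of 19. Overlap with an ARID peak is met more easily by a wide peak, and the list medians are over all SNF5 peaks. The larger width of these SNF5 peaks is therefore not shown to be a trait of KLF genes, and neither is that of the ARID1A peaks, given the few loci. Scores ran from 15 at KLF16 to 30 at KLF6 and KLF10.

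**Figure D4:**
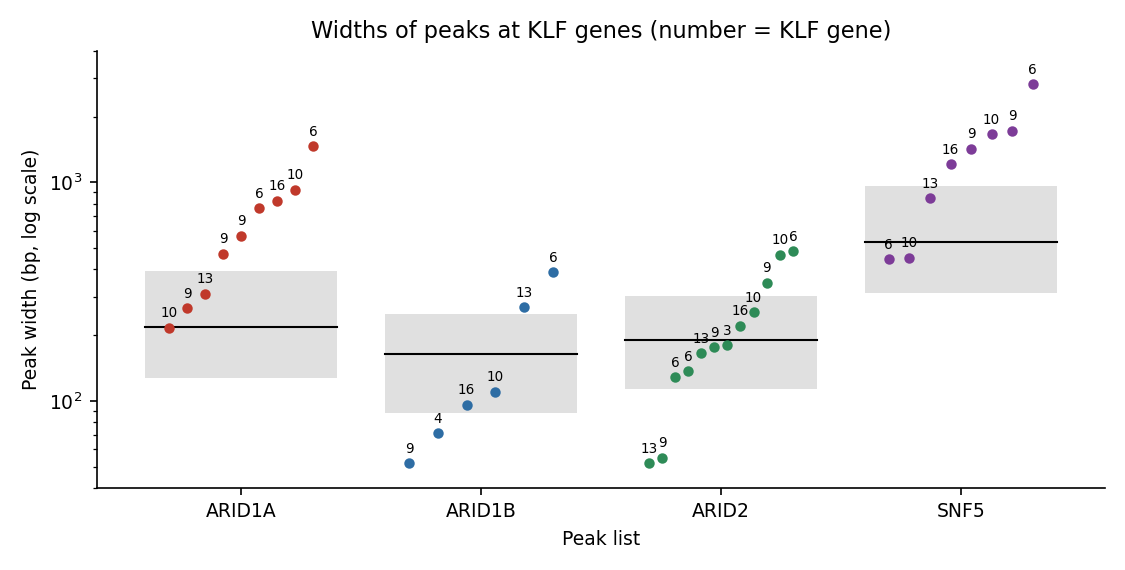
Width of each peak at a KLF gene in bp (y axis, log scale) by list (x axis), with each point labelled by the number of its KLF gene, a grey box for the quartiles of the whole list and a black line for its median. SNF5 points are only the SNF5 peaks that overlapped an ARID peak of a KLF gene. ARID1A and SNF5 points sit mostly above the line, up to 1463 and 2816 bp, and ARID1B and ARID2 points sit on both sides of it.

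Sequence under the KLF peaks was compared with all ARID peaks in windows of 200 bp about each midpoint. The GC content of the 27 windows had a median of 63.5% and ran from 37.5% at KLF4 to 79.5% at the KLF13 promoter, against 58.5% over all peaks. A GC box was present in 13 of 27 (33.0% of all peaks) and a CACCC box in 17 of 27 (46.7%). The AP-1 site (TGANTCA, searched on both strands) was present in 2 of 27 (4.99%), namely an ARID1A promoter peak each of KLF9 and KLF10. Among the 16 promoter peaks, 12 held a GC box (45.7% of all promoter peaks) with a median GC of 73.5% against 64.5%, and 9 held a CACCC box (50.3%). Windows of peaks that overlap share bases, so these counts are not of separate sequences.

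Boxes were not confined to the members that were bound. In the RefSeq promoter table (GRCh38.p14, 300 bases per promoter), 8 members matched with 10 promoters, of which 8 held a GC box (45.0% of 35116 promoters), 4 a CACCC box (59.9%) and none an AP-1 site (7.71%). KLF2, KLF5 and KLF11, which had no ARID peak, each had at least 1 promoter with a GC box, with 6 matches at KLF2, while the other of the 2 KLF5 promoters had none. KLF9, which had the most ARID peaks, had none of the 3 motifs in its promoter of 300 bases, where 32.7% of bases were G or C. All but 1 of its peaks lay in the upstream cluster, outside that promoter. The other, an ARID1A peak of the promoter class, ran from 427 to 898 downstream of the start. Its place relative to the promoter of 300 bases was not determined. The window of this ARID1A peak held a CACCC box and an AP-1 site, with 56.5% G or C. A match describes the letters of a window and is no measure of binding.

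Other genes of the family and its partners were counted from a fixed list, first by the deposited nearest gene. Of the 8 remaining KLF genes, KLF15 alone had peaks, 1 of ARID1A and 1 of ARID2, and KLF1, KLF7, KLF8, KLF12, KLF14, KLF17 and KLF18 had none. Of the 9 SP genes, whose products bind the same boxes, 5 were assigned peaks and 4 were assigned all 3 ARIDs, namely SP1, SP3, SP4 and SP5, while SP6, SP7, SP8 and SP9 were assigned none. SP5, a target of Wnt signaling, was assigned 9 peaks summing to 11715 bp, and all 9 overlapped another ARID and SNF5. Of 11 genes for cofactors and ubiquitin ligases that act on KLF proteins, 7 were assigned peaks, none was assigned all 3 ARIDs, and CTBP2, SIN3B, KAT2B and FBXW7 were assigned none. By position, within 5000 bp of the gene body, these counts changed. Of all protein-coding genes, 53.5% had an ARID peak there and 16.7% had all 3 ARIDs. Among the SP genes, 7 of 9 then had an ARID peak, SP2, SP3, SP4 and SP5 had all 3 ARIDs, SP1 had no ARID2, and SP7 and SP8 had none. Among the cofactor genes, 8 of 11 had an ARID peak, SIN3A and HDAC2 had all 3 ARIDs, and CTBP2, SIN3B and KAT2B had none. At FBXW7, an ARID1A peak assigned to another name covered the start. The counts for the 8 remaining KLF genes were the same by position.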

How the data were processed

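Peak lists of 4 SWI/SNF subunits in HepG2 cells were used, and samples were grouped by the antibody in the title. Per the study's methods, the authors used bowtie2 to map reads on hg19, discarded duplicates, pooled the replicates of an antibody, called broad peaks with MACS2, fused peaks lying close together and dropped blacklisted regions, so closely spaced sites can appear as 1 wide peak. The deposited ARID lists give boundaries, feature class and nearest gene (Gencode V16), distance to the nearest start and chromatin state, whose source is not given in the sources used here. The deposited score of the peak caller was present for SNF5 only. The input library, RNA-seq and signal tracks were not analysed here.

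Overlap was at least 1 bp. Deposited distances matched, within 5 bp, the distance from the peak midpoint to a transcript start for 72.5%, 73.8% and 72.9% of ARID1A, ARID1B and ARID2 peaks with a name in the reference annotation. Gene positions came from Gencode v44 lifted to GRCh37 (20163 protein-coding genes), and sequences from GRCh37, in which 0 peaks ran past a chromosome end. Shares carry Wilson 95% intervals. Analyses used Python 3.11.15 with pandas 2.3.3, numpy 2.4.6 and scipy 1.17.1, and the overlap code was tested on simulated data. Every assigned peak of the 10 members was described, and further family and cofactor genes were named where they had peaks of all 3 ARIDs or none. KLF15 and the level of SP5 were added after their values were seen. The name most like KLF6 was chosen by equal peak counts, with all peaks overlapping another ARID and SNF5, then by summed width. Members and lists were chosen with earlier results of these data known, and the counts within 50000 bp were added after the peaks were seen. Alternatives were other overlap rules, promoter distances and width limits.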

Additional observations from a re-analysis of the deposited data

How the results depend on the processing

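Over 16 results and 75 alternatives, 56 values moved by less than their counting interval or by less than 1.5 times and 19 moved more, and the cause was not tested. The count of 56 is no measure of stability, since intervals over 6 to 12 peaks are wide. For the numbers of members, joining peaks at most 1000 bp apart could not change the value, because the same members were counted. A reciprocal overlap of at least 50% left SNF5 shares of 22.2%, 0% and 0% and multiple shares of 0%, 16.7% and 8.33% for ARID1A, ARID1B and ARID2. Over the whole lists this rule left 13.0%, 5.58% and 7.56% with SNF5 and 17.7%, 12.5% and 17.1% multiple. With a gap of at most 1000 bp, the SNF5 share of ARID2 was 100%, and the multiple shares were 88.9% for ARID1A and 100% for ARID2. With midpoints at most 500 bp apart, the multiple share of ARID1A was 88.9%. With a distance of at most 500 bp in place of the promoter class, the ARID2 promoter share was 33.3%, and members with a promoter peak numbered 3 for ARID1A and 1 for ARID1B. With the widest 50% of peaks in each list, KLF peaks numbered 2 for ARID1B and 5 for ARID2, the latter with an SNF5 share of 100%, members with a promoter peak numbered 1 for ARID1B and 3 for ARID2, and 1 member, KLF6, had all 3 ARIDs. No paired analysis was possible because the authors merged the replicates before peak calling, and no replicate could be left out for the same reason. Depth is unknown, so a peak missing at KLF2, KLF5 or KLF11 is not shown to be absent.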
